A study of Arabidopsis thaliana with 96 samples.

Results

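Accessible regions of leaf chromatin in Col-0, the reference accession of *Arabidopsis thaliana*, were compared with those of 5 other accessions, Ad-0, En-2, Hi, Mt and Og, whose peaks lie on the TAIR10 reference. A region was a stretch of bases covered by a peak in at least 2 of the 4 files of an accession, on the 5 nuclear chromosomes. Col-0 had 15841 such regions, covering 4.104% of the nuclear genome. Each was extended by 150 bp on either side and called found in an accession where it touched a region of that accession. The series holds 96 lists of peaks, and 24 of them, 4 for each of these 6 accessions, were used. All plants were kept in growth chambers under long days, leaf tissue was taken, and the labels name no treatment for these groups. The labels give no plant age and do not say whether the 4 files came from separate plants.

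ATAC-seq uses the Tn5 transposase to cut DNA that is free of nucleosomes, so that clusters of cuts mark open promoters and other regulatory sequences. In leaves such sites lie mainly just upstream of gene starts, where transcription factors and the transcription machinery bind. Open chromatin at a start does not by itself show that the gene is transcribed. In bulk tissue, fewer cells with an open site and a less open site per cell cannot be told apart.

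The lists of the 6 accessions differed in depth, with 4582467 to 4754108 tags in the Col-0 files, against 1463227 (En-2) to 2442198 (Og) tags in those of the other 5. Numbers of regions did not follow the tags. Mt had 21543 regions, Og 15196, En-2 12107, Ad-0 6689 and Hi 6110. The pileups of any pair of Col-0 files differed by less than draws from a single library would, with a dispersion index of 0.815 to 0.844 where 1 marks such draws, and the index was 0.815 to 0.923 over the 36 pairs within accessions. The 4 files of an accession were therefore counted as 1 sample, and no error over files is given. Between Col-0 and each other accession the index was 2.51 to 4.41, from replicate 1 of each and summits within 50 bp. Col-0 positions, shifted as described next, were not corrected for it, so some summits may be unpaired or wrongly paired. Untreated Col-0, whose file headers name naked DNA, gave 664 regions, and 236 of the 15841 Col-0 regions (1.49%) overlapped one.

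Positions in the Col-0 lists were shifted from those in the other lists. In Col-0 the median summit, averaged over genes of either strand in windows of 5 Mb, lay between 129 bp to one side (a value of -129) and 90 bp to the other side of annotated gene starts. In the 5 other accessions it lay between -24.8 and 22.0 bp. The extension by 150 bp was wider than these shifts. In 97.7% of 3384 Col-0 regions found in all 5 with a single region in each, the summits lay within 150 bp of each other. These regions had already touched within the extension, so this share cannot show that the extension was wide enough. Because of the shifts, coordinates and sequences are given only from TAIR10 gene models and from the lists of the 5 other accessions. Distances of Col-0 summits from gene starts were not corrected, and each can be wrong by about the size of these shifts.

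Of the 15841 Col-0 regions, 3921 (24.8%) were found in all 5 accessions, and 953 (6.02%) in 0 accessions, with exact 95% binomial intervals of 24.1 to 25.4% and 5.65 to 6.40%. These intervals cover counting error only. Between these ends, 1664 regions were found in 1 accession, 3035 in 2, 3263 in 3 and 3005 in 4. When every file was cut to its 5564 most significant peaks, the number in the shortest list, 42.0% of 5844 Col-0 regions were found in all 5 and 4.76% in 0. Leaving out Mt, the accession with the most regions, 11.9% were found in none of the other 4. Where at least 0.5 of a region's bases had to be covered, 14.4% were found in all 5 and 11.9% in 0, and with bases required in all 4 files the share found in 0 was 9.44%.

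**Figure D1:**
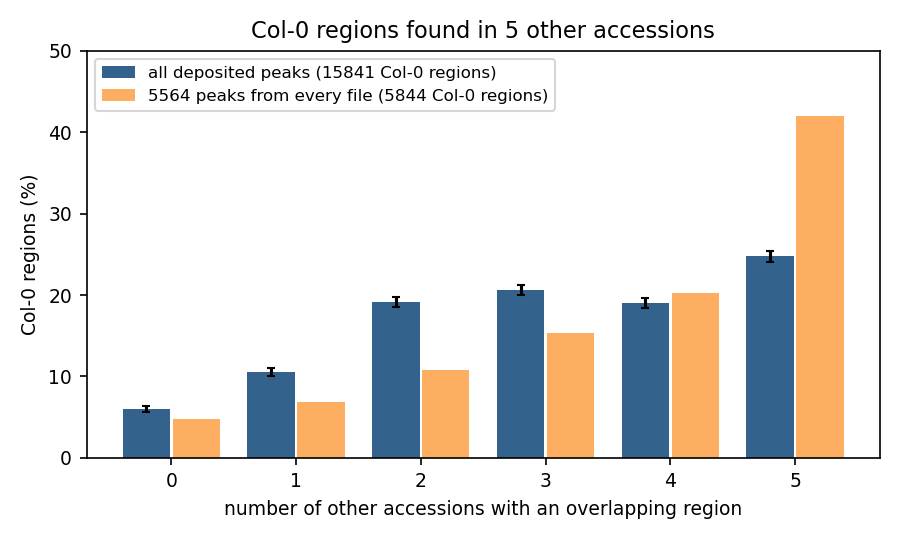
Percent of Col-0 regions (y axis) by the number of other accessions with an overlapping region (x axis). Blue bars use all deposited peaks, with exact 95% binomial intervals as error bars, and orange bars use 5564 peaks from every file. The share found in all 5 was 24.8% with all peaks and 42.0% with equal numbers of peaks.

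Promoters of a few genes next to shared and unshared Col-0 regions are shown first, as the reference sequence in which the motifs described later lie. They run 5′ to 3′ on the strand of the gene, over 250 bases before and 50 bases from the annotated start, and were read from RefSeq's TAIR10.1 assembly. Capitals mark matches to any of 8 short motifs, described with their frequencies further on. A summit up to 500 bp from the start counted as near it, so a region can lie partly or wholly outside the promoter shown. FEI1, FBW2 and CSY3 had some of the highest Col-0 regions found in all 5 accessions. Their promoters lie at chr1:11249350-11249649 (plus strand), chr4:5757764-5758063 (plus) and chr2:17806024-17806323 (minus). Each contains the G-box CACGTG at 2 places, and they were picked for it after their sequences were seen. Of the 12 promoters at the highest regions found in all 5, 5 contain a G-box, against 20.2% of all 2700 promoters with a region found in all 5. AGL44, with the third highest region, has none. At BAM7, another of the 12, the bases shared by the 5 other accessions lie outside the promoter window.
FEI1: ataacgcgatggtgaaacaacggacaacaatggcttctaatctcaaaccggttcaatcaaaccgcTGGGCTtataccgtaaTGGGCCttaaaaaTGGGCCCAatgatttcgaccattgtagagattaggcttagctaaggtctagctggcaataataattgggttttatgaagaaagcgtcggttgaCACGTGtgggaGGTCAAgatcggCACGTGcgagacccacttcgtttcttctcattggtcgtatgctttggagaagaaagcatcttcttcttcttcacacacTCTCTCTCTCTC
FBW2: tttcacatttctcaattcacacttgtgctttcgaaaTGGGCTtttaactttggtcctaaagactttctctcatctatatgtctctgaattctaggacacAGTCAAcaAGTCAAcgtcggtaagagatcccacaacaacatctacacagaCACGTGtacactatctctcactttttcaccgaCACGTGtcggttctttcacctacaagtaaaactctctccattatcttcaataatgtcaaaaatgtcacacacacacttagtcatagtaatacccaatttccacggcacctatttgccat
CSY3: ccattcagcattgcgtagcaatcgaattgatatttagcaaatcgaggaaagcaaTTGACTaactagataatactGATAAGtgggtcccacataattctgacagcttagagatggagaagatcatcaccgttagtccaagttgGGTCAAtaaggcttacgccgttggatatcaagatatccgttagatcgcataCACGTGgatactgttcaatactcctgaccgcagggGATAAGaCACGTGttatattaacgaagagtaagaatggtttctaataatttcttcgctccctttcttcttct

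TRM9 and GAMMA-ADAPTIN 1 had the highest and the fifth highest Col-0 region found in 0 accessions, and PDV1 one found in 3. Their promoters lie at chr1:11316533-11316832 (minus strand), chr1:8440823-8441122 (plus) and chr5:21607160-21607459 (plus). Of the 12 highest regions found in 0, 6 lie within 500 bp of a protein-coding start. None of these promoters, TRM9 and GAMMA-ADAPTIN 1 among them, has a G-box here. Of all 367 promoters with a region found in 0 accessions, 7.90% hold a G-box, against 7.68% of all promoters. So few promoters cannot show a lack of it. All capitals in the TRM9 promoter are site II elements, TGGGCC or TGGGCT on either strand.
TRM9: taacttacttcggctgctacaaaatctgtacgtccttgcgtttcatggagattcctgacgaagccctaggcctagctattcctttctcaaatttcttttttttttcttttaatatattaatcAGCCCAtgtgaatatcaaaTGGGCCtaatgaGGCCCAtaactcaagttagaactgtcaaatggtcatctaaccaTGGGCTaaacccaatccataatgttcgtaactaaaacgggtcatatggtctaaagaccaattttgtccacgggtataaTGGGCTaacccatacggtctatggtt
GAMMA-ADAPTIN 1: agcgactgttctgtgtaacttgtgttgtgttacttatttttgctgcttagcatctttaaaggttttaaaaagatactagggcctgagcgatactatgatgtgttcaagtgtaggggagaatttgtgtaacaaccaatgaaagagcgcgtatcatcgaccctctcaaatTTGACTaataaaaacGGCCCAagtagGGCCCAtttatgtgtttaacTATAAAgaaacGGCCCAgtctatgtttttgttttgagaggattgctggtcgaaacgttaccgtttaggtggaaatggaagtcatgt
PDV1: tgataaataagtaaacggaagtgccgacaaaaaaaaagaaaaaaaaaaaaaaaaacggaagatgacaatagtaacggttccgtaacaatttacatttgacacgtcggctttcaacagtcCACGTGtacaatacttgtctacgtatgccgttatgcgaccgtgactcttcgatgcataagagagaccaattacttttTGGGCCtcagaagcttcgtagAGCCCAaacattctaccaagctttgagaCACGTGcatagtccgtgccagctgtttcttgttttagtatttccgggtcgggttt

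Col-0 regions found in more accessions were higher and wider. Height is given as fold enrichment, for which the authors divided the summit's pileup by the background expected around it. Median height, averaged over files with a peak, was 3.57 for regions found in 0 accessions, 3.65 in 1, 3.93 in 2, 4.61 in 3, 5.66 in 4 and 9.04 in all 5. The 4 Col-0 files gave medians of 3.58, 3.71, 3.58 and 3.72 for regions found in 0 accessions. For those found in all 5 they gave 9.01, 8.98, 9.07 and 9.07. The 4 files count as 1 sample, so their closeness does not measure a spread between samples. The medians for regions found in 1 accession, 3.702 to 3.745, overlapped those for 0. Median width was 187 bp for regions found in 0 accessions, 252 bp in 1 to 4 and 406 bp in all 5. A wider region has more bases with which to touch another, so width is not independent of the count of accessions. A peak was present in all 4 Col-0 files for 37.99% of the regions found in 0 accessions, 69.2% in 1 to 4 and 98.8% in all 5.

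**Figure D2:**
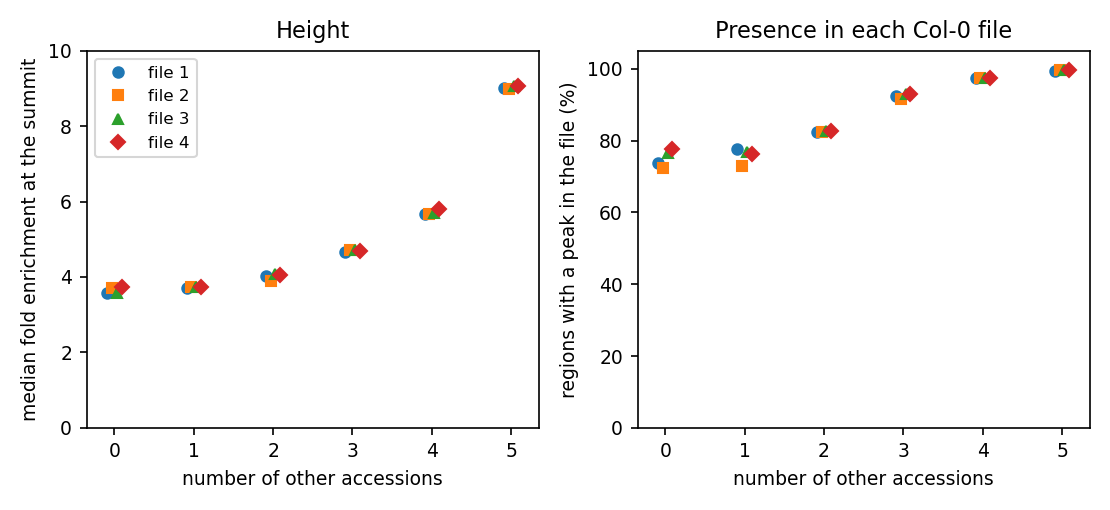
Left, median fold enrichment at the summit in each of the 4 Col-0 files (y axis, a ratio) by the number of other accessions with an overlapping region (x axis). Right, percent of the regions with a peak in each file. The points of the 4 files lie close together, near 3.57 to 3.72 at 0 accessions and near 8.98 to 9.07 at all 5.

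Height and sharing were not the same thing. In the highest decile of Col-0 regions, with fold enrichments from 10.9 to 56.2, 85.4% were found in all 5 accessions and 15 of 1584 (0.947%) in 0. In the lowest decile, with fold enrichments of 1.43 to 3.32, 4.67% were found in all 5 and 20.6% in 0. In the second highest decile 62.9% were found in all 5.

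**Figure D3:**
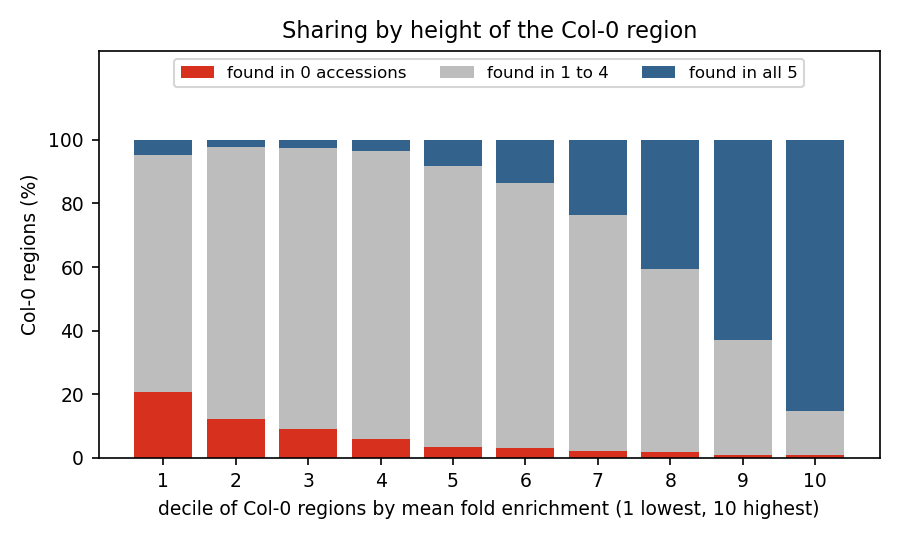
Percent of Col-0 regions (y axis) found in 0, 1 to 4 or all 5 other accessions in each decile of regions ranked by mean fold enrichment (x axis, lowest decile 1). The share found in all 5 was 4.67% in the lowest decile and 85.4% in the highest.

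Hi and Ad-0, with the fewest regions, were the accessions in which a Col-0 region was most often missing. Hi held 37.6% of the Col-0 regions, Ad-0 39.2%, En-2 67.7%, Og 79.9% and Mt 85.9%. Of the 3005 regions found in exactly 4 accessions, Hi was the one missing for 1590 (52.9%) and Ad-0 for 1255 (41.8%). Of the 1664 found in a single accession, that accession was Mt for 927 (55.7%) and Og for 473 (28.4%). With 5564 peaks from each file the shares of Col-0 regions held came closer together and their order changed, with 67.5% in Ad-0, 70.3% in Mt, 74.97% in Hi, 75.2% in En-2 and 77.3% in Og. In the other direction, 98.1% of the Hi regions, 94.7% of Ad-0, 90.01% of En-2, 83.8% of Og and 66.1% of Mt touched an extended Col-0 region.

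Within each accession, regions shared with Col-0 were higher, wider and nearer gene starts than those not shared. Median fold enrichment averaged 5.87 in shared and 4.44 in unshared regions, a difference of 1.43 ± 0.381 (SD over 5 accessions). Median width averaged 260 and 159 bp, with a difference of 101.4 ± 24.1 bp. A wider region touches a Col-0 region more easily, so width is not independent of this split and its test is descriptive only. The share within 500 bp of a gene start averaged 65.4 and 46.6%, with a difference of 18.8 ± 12.5 percentage points, smallest in Og, with 66.8% of shared and 60.3% of unshared regions, and largest in Ad-0, with 62.9 and 28.7%. Each difference was positive in 5 of 5 accessions, with p = 0.0625 in a two-sided exact sign-flip permutation test, the smallest it allows with 5 accessions, and 0.0625 after Benjamini-Hochberg adjustment over the 3 measures. With 5564 peaks from each file the difference near gene starts was 9.06 ± 9.75 percentage points, positive in 4 of 5 accessions (exact p = 0.188), and in Mt 75.5% of shared and 77.0% of unshared regions were near a start. Height and width kept their direction in 5 of 5. All 5 accessions were split by the same Col-0 regions, so their differences are not independent and these p-values are descriptive.

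With all deposited peaks, the Col-0 regions as a whole lay within the range of the other 5 accessions in 2 of 4 measures. They were above it in summits inside gene bodies and in width. Within 500 bp of a gene start lay 64.2% of the Col-0 regions, against 63.9% ± 1.88 (mean and SD) in the 5 other accessions, with p = 0.833 in an exact permutation test of 1 accession against 5. Summits inside gene bodies made up 13.4% in Col-0 and 12.2% ± 0.378 in the others, where the highest was 12.7%. The exact permutation test gave p = 0.167, the smallest that 1 against 5 allows, and 0.667 after adjustment over 4 measures. Median width was 283 bp in Col-0 and 244 ± 24.8 bp in the others, where the highest was 279 bp (p = 0.333 by the exact permutation test, adjusted 0.667). The regions covered 4.104% of the nuclear genome in Col-0, against 2.75% ± 1.47 in the others (p = 0.667 by the exact permutation test, adjusted 0.833). No such test could fall below 0.05.

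Fewer of the Col-0 regions found in 0 accessions lay near a gene start. Within 500 bp of a start were 48.9% of them (interval 45.7 to 52.1%), 64.8% of those found in 1 to 4 (63.9 to 65.7%) and 66.1% of those found in all 5 (64.6 to 67.6%). All 3 shares were above the 28.4% of nuclear bases that lie this near a start. Inside gene bodies, beyond 500 bp of any start, were 24.9% of the regions found in 0 accessions, 12.9% in 1 to 4 and 11.9% in all 5, against 47.0% of nuclear bases. Intergenic summits made up 19.3, 15.9 and 17.3% of the 3 classes, against 18.9% of nuclear bases. The median distance to the nearest start was 537 bp for regions found in 0 accessions, 177 bp in 1 to 4 and 183 bp in all 5, and 13.7, 8.96 and 9.21% of them lay more than 2000 bp away.

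**Figure D4:**
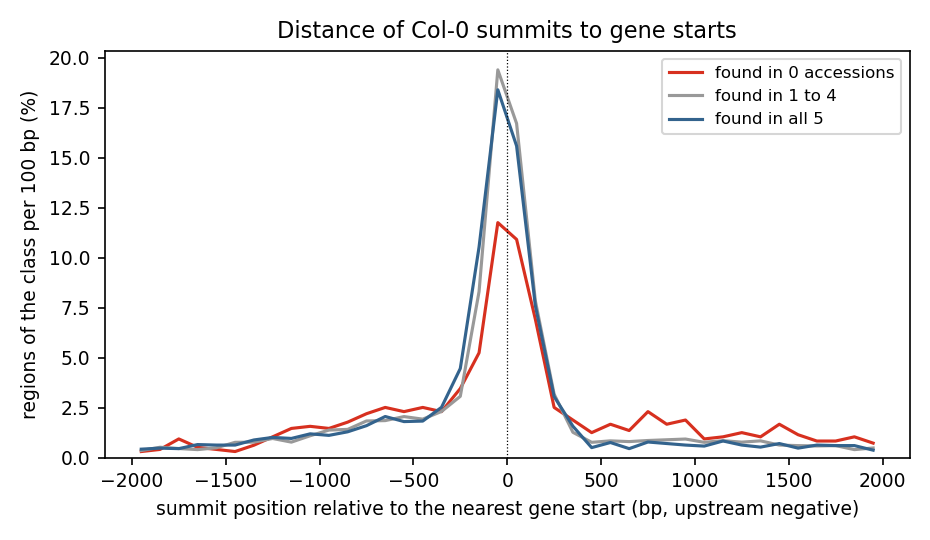
Percent of the regions of a class per 100 bp (y axis) by the signed distance of the Col-0 summit from the nearest gene start in bp (x axis, upstream negative). Col-0 positions were not corrected for their shift. All 3 classes peak at the start, and the curve of regions found in 0 accessions is lower there and higher between 500 and 1500 bp downstream. Beyond 1000 bp on either side, partly outside the axis, lay 32.004% of regions found in 0, 22.2% in 1 to 4 and 22.6% in all 5.

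Within quartiles of height the order of the classes changed. Quartiles match height only roughly, and the highest spans fold enrichments of 7.18 to 56.2. In the lowest quartile by fold enrichment, 45.1% of 601 regions found in 0 accessions, 55.2% of 3224 found in 1 to 4 and 44.1% of 136 found in all 5 lay within 500 bp of a start. In the next the shares were 54.0, 63.9 and 42.9%, and in the one above it 59.4, 71.1 and 55.1%. In the highest quartile they were 52.5% of 40 regions, 77.5% of 1210 and 72.5% of 2710. Regions found in 0 accessions were therefore below those found in 1 to 4 in each quartile, and below those found in all 5 only in the highest.

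The nearest start belonged to a protein-coding gene for 76.0% of the regions found in 0 accessions, 87.1% in 1 to 4 and 83.8% in all 5. Of all annotated genes, 72.4% are protein-coding. Pseudogenes were nearest for 5.88, 1.42 and 1.68%, all below their 10.3% of annotated genes. Transcribed pseudogenes, counted apart, were nearest for 2.52, 0.948 and 0.816%, against 2.44% of annotated genes. Genes for transfer RNAs, which RNA polymerase III transcribes from promoters inside the gene, were nearest for 2.31, 2.01 and 3.698%. They make up 1.65% of annotated genes. A Col-0 region lay within 500 bp of the start of 441 of 625 such genes when all classes are added, and for 190 of them (30.4%) that region was found in all 5 accessions. Of all 27444 protein-coding genes, 10122 (36.9%) had such a region and 2700 (9.84%) one found in all 5. Copies of transfer RNA genes are often near-identical, so the position of their reads may be uncertain, which was not tested.

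Regions found in 0 accessions lay more often in gene-poor stretches than those found in 1 to 4. They also did so more often than those found in all 5, except among the lowest. Windows of 100000 bp with fewer than 15 protein-coding gene starts make up 17.5% of the windows of the genome. They held 96 (10.1%) of the regions found in 0 accessions, 451 (4.11%) in 1 to 4 and 163 (4.16%) in all 5. In the lowest quartile by fold enrichment, 6.49% of the 601 regions found in 0 accessions lay in such windows, 4.16% of those in 1 to 4 and 11.03% of the 136 in all 5. In the next quartile these were 12.3, 3.39 and 6.34%, in the one above it 17.8, 3.61 and 4.14%, and in the highest 32.5% of 40 regions, 7.36 and 3.65%. Over windows of 1 Mb with at least 20 regions, the share found in 0 was highest on chromosome 2 from 4 to 5 Mb, at 8 of 22 regions (36.4%, exact interval 17.2 to 59.3%), and 27.3% (9 of 33) in the next window. Whole chromosomes differed little, from 5.47% found in 0 on chromosome 5 to 6.45% on chromosome 1.

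Overlap with naked DNA was small in each class. Of the regions found in 0 accessions 13 (1.36%) overlapped an untreated region, of those in 1 to 4 114 (1.04%) and of those in all 5 109 (2.78%). On chromosome 2 between 3.2 and 3.7 Mb, a stretch that in Col-0 carries an insertion of mitochondrial DNA, 124 of 159 Col-0 regions overlapped untreated regions, at a median fold enrichment of 1.89. This stretch held 10 of the 13 overlapping regions found in 0 accessions and 41 of the 109 found in all 5. The stretch held 44 of the regions found in all 5, and its median lies within the lowest decile of height, 1.43 to 3.32. Its part among the low regions found in all 5 was not counted. The stretch was chosen after its values were seen.

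The 12 highest Col-0 regions found in all 5 accessions near a named protein-coding gene, chosen by mean fold enrichment among regions present in all 4 files, ranged from 23.9 to 29.2. Their heights are a description, since they were chosen by their height in Col-0. That choice favours lower values in the other accessions. The region at FEI1, a leucine-rich repeat receptor kinase that acts in cell wall synthesis, had a fold enrichment of 29.2, 28.9, 28.6 and 30.2 in the 4 Col-0 files. The other accessions had 18.0 in Ad-0, 29.0 in En-2, 24.8 in Hi, 29.7 in Mt and 27.5 in Og. Ad-0, Hi and Og were below the lowest Col-0 file here, and En-2 and Mt within the range of the 4 files. The files were not counted as separate samples, so their range cannot show whether accessions differ. The bases shared by the 5 other accessions at FEI1 are chr1:11249360-11249649, which is nearly the whole promoter printed above. FBW2, an F-box protein that acts on ARGONAUTE1, had 30.8, 27.2, 28.6 and 29.2 in Col-0, against 12.1 in Ad-0, 24.2 in En-2, 21.9 in Hi, 20.8 in Mt and 21.5 in Og. All 5 values were below the lowest Col-0 file, but no difference between accessions is drawn from this, given the choice by Col-0 height. CSY3, a citrate synthase of peroxisomes, had 26.2, 26.3, 26.5 and 27.5 in Col-0, with 22.6 in Ad-0, 26.5 in En-2, 18.7 in Hi, 20.5 in Mt and 20.8 in Og.

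The other 9 covered several functions. AGL44, a MADS-box factor of the root response to nitrate, averaged 28.6 in Col-0, and the phosphatase gene PP2CG1 25.8. BAM7, a β-amylase-like transcription factor, averaged 25.2, and ALN, the allantoinase of purine breakdown, 24.8. GolS2, a galactinol synthase induced by drought, averaged 24.5 in Col-0, with 29.5 in Ad-0, 33.4 in En-2, 25.7 in Hi, 18.5 in Mt and 19.4 in Og, so 3 accessions were above the Col-0 mean. CNX7, of molybdenum cofactor synthesis, averaged 24.02, against 6.70 in Ad-0, 13.6 in En-2, 19.4 in Hi, 19.4 in Mt and 19.0 in Og, and left this class when at least 0.5 of the region had to be covered. RKP, UBP1A and EMB2770 averaged 25.6, 23.97 and 23.9. None of these 12 regions overlapped an untreated region.

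The highest Col-0 regions found in 0 accessions reached heights that were otherwise mostly shared. TRM9, annotated as an RNA-binding family protein, had 21.8, 22.6, 24.99 and 22.6 in the 4 Col-0 files. Its region spanned 406 bp, with the summit 79 bp upstream of the start, uncorrected for the shift of Col-0 positions. The closest region of any other accession was 12228 bp away. The region next to AT3G43580, annotated as related to β-galactosidase, had 22.9, 21.8, 20.9 and 20.9 in Col-0 and spanned 829 bp, with the closest other region 6623 bp away. At GAMMA-ADAPTIN 1, a subunit of a clathrin adaptor, Col-0 had 15.8, 17.5, 16.8 and 15.2, and the closest other region lay 4915 bp away. The choice required a peak in all 4 Col-0 files, which count as 1 sample, so their like heights are no separate support. No file of the other accessions listed a peak at any of the 3.

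Others among the 12 were at AT2G01035 (mean 18.1), AT1G43997 (17.7), AT1G64710 of the alcohol dehydrogenase family (12.8), AT1G52905 (12.6), AT1G05070 (12.3), the long noncoding RNA AT3G07155 (12.1), ATG8C of autophagy (11.8), AT2G24693 (11.6) and AT3G44435 (11.3). A single-file peak of another accession lay at AT1G64710 in 2 files and at AT1G05070 in 1 file, and at the other 10 of the 12 in 0 of 20 files. Over the 953 regions found in 0 accessions, 458 (48.1%) had no peak in any of these 20 files. The median distance to the closest region of another accession was 1180 bp, and 103 (10.8%) lay within 300 bp of one, just outside the extension. The closest of all lay 152 bp away.

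The 6 highest regions found in 1 to 4 accessions, chosen by the same measure, show partial sharing. PDV1 and PARC6 both act in plastid division. PDV1 had 21.1, 18.8, 16.8 and 18.5 in Col-0, against 23.1 in En-2, 17.1 in Mt and 5.40 in Og, and no region in Ad-0 or Hi. PARC6 averaged 15.1 in Col-0, against 23.1 in Mt and 10.5 in Og, and had no region in the other 3. VAMP714, a SNARE of vesicle transport, averaged 18.9, PFS2, a homeodomain factor, 15.4, and PDX1.2, of vitamin B6 synthesis, 15.4 in Col-0. All 3 were found in En-2, Hi, Mt and Og and not in Ad-0. SYP41, a syntaxin of the trans-Golgi network, averaged 15.2 and lacked a region in Mt only.

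Gene starts were then grouped by function. Of 27444 protein-coding genes, 10122 (36.9%) had a Col-0 summit within 500 bp of the start. The nearest such region was found in all 5 accessions for 2700 genes (9.84%), in 1 to 4 for 7055 (25.7%) and in 0 for 367 (1.34%). Lists of 160 genes were compared with these shares, with no test, since the lists were drawn up with results of these data known.

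Genes of light harvesting and carbon fixation, the main work of leaf mesophyll, all had a Col-0 region, 14 of 25 (56.0%) one found in all 5, 10 in 1 to 4 and 1 in 0. LHCA4, an antenna protein of photosystem I, had 11.5, 12.6, 11.6 and 11.3 in Col-0, against 12.7 in Ad-0, 18.8 in En-2, 12.7 in Hi, 14.8 in Mt and 11.2 in Og. RBCS1A, a small subunit of Rubisco, averaged 10.4 in Col-0, against 16.0 in Ad-0, 16.7 in En-2, 10.9 in Hi, 6.53 in Mt and 7.76 in Og. CA1, a carbonic anhydrase, was the member found in 0, with fold enrichments of 3.94 and 4.11 in the 2 Col-0 files that listed it. Several genes of this list are near-identical copies in tandem, so their reads may have been divided between copies, which was not tested.

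Clock genes had the largest share found in all 5 among the lists, 13 of 19 (68.4%), with 2 in 1 to 4 and 0 in 0 accessions. CCA1, a MYB repressor expressed at dawn, had 18.9, 20.1, 22.3 and 18.7 in Col-0, against 19.5 in Ad-0, 16.7 in En-2, 11.8 in Hi, 11.6 in Mt and 16.6 in Og. PRR7, a pseudo-response regulator that represses CCA1, averaged 19.0, LHY, the close relative of CCA1, 13.7, and TOC1, an evening repressor, 12.2. Of the 18 light signalling genes, 6 had a region found in all 5 and 9 one found in 1 to 4. HY5, a bZIP factor of light responses, had 20.3, 20.9, 20.005 and 20.9 in Col-0, against 13.2 in Ad-0, 21.1 in En-2, 14.8 in Hi, 18.1 in Mt and 15.3 in Og. PHYC, a phytochrome, averaged 14.5 in Col-0 and was found only in En-2, with 7.85, and in Mt, with 18.0. All 12 commonly used reference genes had a region, 6 of them found in all 5, among them GAPC1 (12.7), ACT7 (12.2) and ACT2 (10.1).

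**Figure D5:**
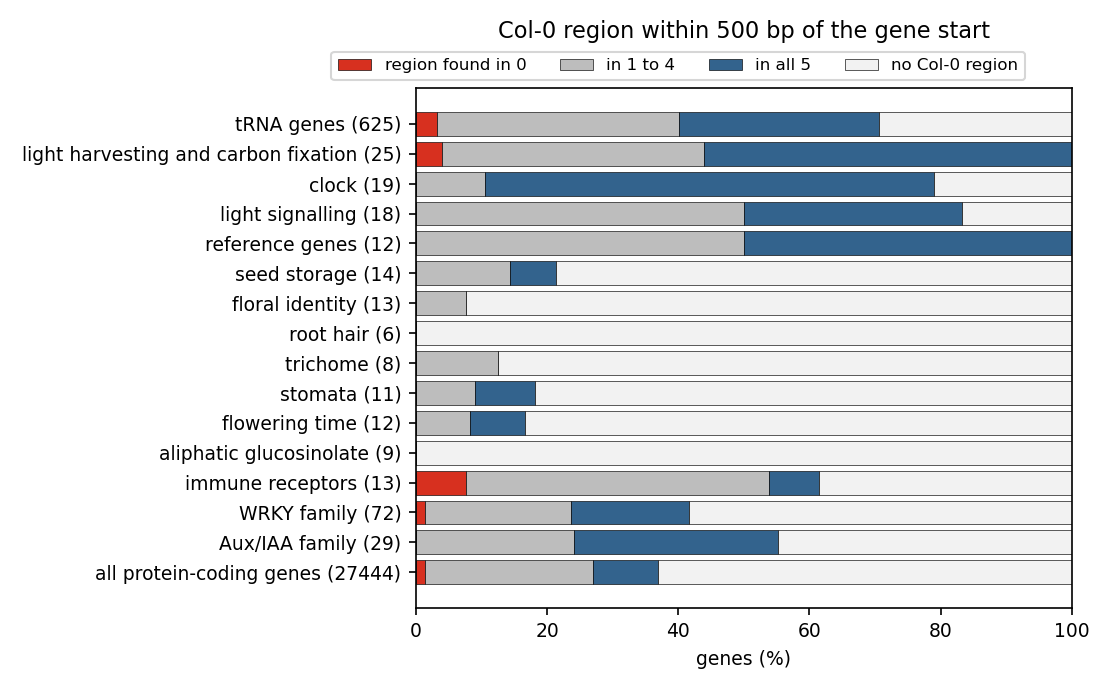
Percent of the genes of each list (x axis) whose start has within 500 bp a Col-0 region found in 0 (red), 1 to 4 (grey) or all 5 (blue) other accessions, or no Col-0 region (pale), with the number of genes in parentheses (y axis). Clock genes had 68.4% found in all 5 and all protein-coding genes 9.84%.

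Lists for other organs had few regions, against 36.9% of all protein-coding genes with one, though these lists are short and were not tested. No region lay at any of 6 root hair genes. Of 14 seed storage genes 3 had one, OLEO1 (5.14, found in all 5), OLEO4 (3.51) and OLEO3 (2.84). Of 13 floral identity genes AP1 had one (4.37). Lists for the leaf epidermis and for pathways that also act in leaves had few as well, so a low count was not particular to other organs. Of 8 trichome genes TTG1 had one (7.85), and of 11 genes of the stomatal lineage TMM (6.19, found in all 5) and SCRM (4.49). Of 12 flowering-time genes SVP had one found in all 5 (4.67) and MAF5 one found in 4 (4.01), and none lay at 9 aliphatic glucosinolate genes.

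Of 13 immune receptors, 1 (7.69%) had a region found in all 5, near the 9.84% of all protein-coding genes, 6 had one found in 1 to 4 and 1 had one found in 0. SNC1, a TIR-type receptor, had 9.61, 11.6, 10.02 and 11.009 in Col-0, against 7.403 in Ad-0, 9.87 in En-2, 7.25 in Hi, 11.2 in Mt and 7.15 in Og. RPP1, which recognises downy mildew, was the member found in 0, with 4.35, 4.38 and 3.24 in the 3 Col-0 files that listed it. RPS4 and RRS1 share a start region and a single value, 4.37 in Col-0, 8.39 in Mt and 6.42 in Og. Over the 159 genes annotated as disease resistance proteins, 5 (3.14%) had a region found in all 5, 46 (28.9%) in 1 to 4 and 7 (4.40%) in 0, against 9.84, 25.7 and 1.34% of all protein-coding genes. Receptor genes lie in clusters of similar copies that vary between accessions, so their reads may be hard to place. The part of this in these uncertain values was not tested.

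Of 72 WRKY transcription factors, which act in defence, 13 (18.1%) had a region found in all 5, 16 in 1 to 4 and 1 in 0. ZAP1 (WRKY1) was highest, with 14.9, 16.98, 17.4 and 17.6 in Col-0, against 11.05 in Ad-0, 21.8 in En-2, 17.9 in Hi, 18.7 in Mt and 13.1 in Og. WRKY70, of salicylic acid responses, was the one found in 0, with 3.54, 4.22, 3.91 and 2.91 in Col-0. Of 29 Aux/IAA repressors of the auxin response, left after removing 3 auxin response factors with older IAA symbols, 9 (31.03%) had a region found in all 5 and 7 in 1 to 4, the highest at ATAUX2-11 (12.8), IAA9 (10.1) and IAA8 (9.15).

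Promoters next to regions found in more accessions more often held a G-box or a site II element. They were searched on both strands over 250 bases before and 50 after the start, in 27443 promoters. The summit could lie up to 500 bp from the start, so this window need not hold the open region. The shares are of promoters, not of open bases. The G-box CACGTG, the core site of bZIP and bHLH factors, was in 7.90% of 367 promoters with a region found in 0 accessions, 10.1% in 1 to 4, 20.2% of 2700 in all 5, 4.73% of those with no Col-0 region and 7.68% of all promoters. Site II, TGGGCC or TGGGCT, the site of TCP factors, was in 25.9, 35.5, 42.7, 12.8 and 21.7% in the same order.

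Over the 3 classes the shares of the other 6 motifs lay closer together, in percentage points, than those of these 2. The evening element AAAATATCT, which clock MYB factors bind, was in 2.45% of promoters found in 0, 2.75% in 1 to 4 and 3.67% in all 5, against 2.82% of all promoters. The TATA box TATAAA was in 51.2% of promoters found in 0, 47.3% in 1 to 4 and 46.5% in all 5, against 52.1% of all promoters. The telo-box AAACCCTA was in 7.08, 6.61 and 6.41%, against 6.22% of all. The GA repeat GAGAGAGA was in 6.54, 8.62 and 9.52%, against 8.38% of all, the I-box GATAAG in 17.7, 15.9 and 18.4%, against 14.6%, and the W-box TTGACC or TTGACT in 32.2, 33.3 and 34.4%, against 32.4%. Mean GC content moved with the classes, at 32.9% in 0, 33.5% in 1 to 4, 35.9% in all 5 and 31.0% with no Col-0 region, and its part in the motif shares was not tested. Promoters with a divergent partner, a protein-coding start on the other strand within 1000 bp, made up 15.3% of genes with a region found in 0, 25.9% in 1 to 4, 34.7% in all 5 and 18.7% of all genes.

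In the other direction, 4024 stretches lay in regions of all 5 other accessions, and 11 (0.273%) touched no extended Col-0 region. None of the 11 lay within 500 bp of a gene start, and 5 overlapped an untreated region. The highest lay upstream of AT1G34690, a transcribed pseudogene (signed distance of -702 bp from its start), at chr1:12712378-12712595, with 5.77 in Ad-0, 12.8 in En-2, 12.2 in Hi, 14.5 in Mt and 20.5 in Og. The next lay upstream of RIC5, an effector of ROP GTPases (signed distance of -1476 bp), at chr3:8371786-8372018, with 8.26 in Ad-0, 13.2 in En-2, 8.15 in Hi, 11.4 in Mt and 10.6 in Og. No Col-0 file listed a peak at either, and the closest Col-0 regions were 23694 and 3052 bp away. Both are printed on the plus strand of TAIR10, with matches to the 8 motifs in capitals.
AT1G34690: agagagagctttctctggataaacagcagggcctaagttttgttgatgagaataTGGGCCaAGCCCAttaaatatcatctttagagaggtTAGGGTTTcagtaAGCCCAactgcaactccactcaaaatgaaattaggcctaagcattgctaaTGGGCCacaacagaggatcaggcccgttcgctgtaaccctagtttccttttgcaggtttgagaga
RIC5: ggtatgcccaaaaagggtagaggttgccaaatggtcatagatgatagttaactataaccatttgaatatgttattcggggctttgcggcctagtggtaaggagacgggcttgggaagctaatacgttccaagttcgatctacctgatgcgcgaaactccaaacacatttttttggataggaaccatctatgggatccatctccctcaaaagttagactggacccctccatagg

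The first contains 4 site II matches and a telo-box, and the second has no match. The 4 others of the 6 highest averaged 5.83 to 6.45, at AT5G31770, AT4G06708, AT4G06702 and PDE331, and the first 3 of these, next to pseudogenes, overlapped untreated regions.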

How the data were processed

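Peak lists of leaf ATAC-seq were used as deposited, 4 files for each of 6 accessions and 4 of untreated Col-0. The authors mapped reads with Bowtie 1.2.2 and called peaks with MACS2 2.1.2 on each file, with no control, all duplicates kept and a q-value cutoff of 0.05 in the file headers. The paper states alignment to the genome of each accession, while the lists of Ad-0, En-2, Hi, Mt and Og shared TAIR10 positions. The deposited signal, the summit's pileup, counts overlapping extended tags and is unscaled, so it rises with depth. The authors' fold enrichment is a ratio of this pileup to that expected nearby. Significance was deposited as -log10 of p-values and q-values.

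Consensus regions, overlaps and distances to gene starts were computed with NumPy 2.4.6 and SciPy 1.17.1 under Python 3.11.15. Genes were from the RefSeq annotation of TAIR10.1. A gene start counted as near within 500 bp of a summit. Depth was 1463227 to 4754108 tags per file, and lists hold no counts outside peaks. Overlap and consensus code was tested on simulated data. Tests were exact permutations over accessions, because regions are not replicates. Named genes were the 12 highest regions found in all 5 accessions and in 0, the 6 highest in 1 to 4, the highest list members with those found in 0, and the 6 highest missing from Col-0. Members and lists were chosen with earlier results of these data known.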

Additional observations from a re-analysis of the deposited data

Results flagged for a closer look

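Among 45 sets of 4 or 5 values examined, 1 held a value far from the others, and chance alone flags about 1 in 20. The fold enrichment of the CNX7 region was 26.1 in Col-0 replicate 4, against 23.3 to 23.4 in the other 3 files. The 4 files were counted as 1 sample.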

How the results depend on the processing

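The shares of Col-0 regions changed with what counted as found. Regions found in 0 accessions made up 6.76% with no extension, 5.37% with an extension by 300 bp (25.7% then in all 5) and 6.47% at a q-value of at most 0.001. With an overlap of at least 0.5 of the region, 11.9% were found in 0, 73.7% in 1 to 4 and 14.4% in all 5. With bases in 1 or more files these were 4.40, 66.7 and 28.9%, with bases in all 4 files 9.44, 72.3 and 18.3%, and with equal numbers of peaks 4.76, 53.2 and 42.0%. Among regions with a peak in all 4 Col-0 files, an alternative chosen after seeing the data, they were 3.06, 64.2 and 32.8%. The cause was not tested.

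The share within 500 bp of a gene start, for regions found in 0, 1 to 4 and all 5 accessions, was 59.7, 68.9 and 73.3% with equal numbers of peaks, 37.99, 58.6 and 58.8% with protein-coding genes only, and 53.0, 68.4 and 71.4% from the nearest edge. For regions found in 1 to 4 it was 66.1% with the overlap of 0.5, 62.9% with bases in 1 or more files, 68.1% with bases in all 4, and 67.2% with a peak in all 4 Col-0 files. The class found in 0 stayed lowest in each. Leaving out regions that overlap untreated Col-0, also chosen after seeing the data, moved none of the 6 shares outside its interval.

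Leaving out each replicate or each accession in turn, the share found in 0 ranged over 6.24 to 11.9%, in 1 to 4 over 59.0 to 70.3%, and in all over 23.0 to 34.8%. The shares near gene starts ranged over 48.1 to 53.2%, 64.1 to 65.8% and 65.1 to 67.4%. Of the 12 named regions found in 0 accessions, 10 kept that class with bases in 1 or more files and 12 under the 6 other settings. Of the 12 found in all 5, 11 kept it with the overlap of 0.5, where CNX7 did not, and 12 under the 6 others. No mean difference over accessions changed direction. With equal numbers of peaks the excess near gene starts of regions shared with Col-0 was 9.06 percentage points, against 18.8 with all peaks, and was negative in Mt (exact permutation p = 0.188). No paired analysis was possible because replicate numbers pair no samples across accessions, the 4 files being 1 sample. Shared and unshared regions were compared within accessions. A region missing from a list may lie under its q-value cutoff at that depth, and the part of depth in the classes was not tested.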
